A study of Mus musculus with 9 samples.

Results

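SR proteins, heterogeneous nuclear ribonucleoproteins (hnRNPs) and the kinases and cofactors around them were followed through 9 mRNA sequencing libraries of induced regulatory T cells (Treg), CD4 T cells that express the transcription factor Foxp3. The genes were chosen by symbol and biotype alone: all protein-coding genes of the count table whose symbol begins with Srsf (11 genes) or Hnrnp (20 genes), and 12 listed regulators, Rbm39, Rbm5, Rbm25, Tra2a, Tra2b, Clk1, Clk2, Clk3, Clk4, U2af1, U2af2 and Luc7l2. That made 43 of 28111 genes in the table. No measured value entered this choice, but the group was put forward after results of these libraries were known, so its values are given as a description within fits of the whole table. All mice were C57BL/6J. Glut1Tg libraries (4) came from mice with a transgene for the glucose transporter Glut1, encoded by Slc2a1, and WT libraries (5) from wild-type controls. The labels also sort the libraries by mouse group: mouse group 1 held WT replicates 1 and 3 and Glut1Tg replicates 2 to 4, and mouse group 2 held WT replicates 2, 4 and 5 and Glut1Tg replicate 1. The labels do not state what sets the mouse groups apart, which promoter drives the transgene, how old the mice were or how the cells were cultured. They also leave unstated whether each library is a separate animal or culture, so p-values cover the spread between libraries only, and that spread may be technical.

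SR proteins bind exonic RNA through RNA recognition motifs and recruit the spliceosome through a domain rich in arginine and serine. Most hnRNPs bind nascent RNA more broadly and often oppose them, so that the balance between both families helps to set which exons are kept. CLK kinases phosphorylate the arginine and serine residues and release SR proteins from nuclear speckles. Many genes of both families hold poison exons or retained introns, through which their own proteins lower their messenger RNA, and in T cells regulated splicing of receptors such as CD45 accompanies activation.

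Libraries held 20881035 to 31196428 counts, of which the 43 genes took 1.15% to 1.5%. All of them passed the filter on low counts, which left 14817 genes to test. Values below are counts scaled to a common library total (CPM, the usual unit of edgeR) with totals adjusted by the TMM method unless stated otherwise. Slc2a1 was higher in all 4 Glut1Tg than in all 5 WT libraries (log2 fold change 2.92, edgeR adjusted p = 0.000903). Foxp3, at 621 to 1164 CPM, and Cd4 and Cd3e, at 448 to 802 CPM and 288 to 411 CPM, were present throughout. The list of 8 Treg and T cell markers that holds them summed to 6127 CPM in WT replicate 2 and 6337 CPM in Glut1Tg replicate 1. In the other 7 libraries the sum was 3000 to 4467 CPM. Of this list Il2ra was called higher and Ctla4 lower in mouse group 2. Across the whole table WT replicate 2 and Glut1Tg replicate 1, both of mouse group 2, stood apart. Their sum over 12 proliferation genes was 6313 and 6779 CPM against 1204 to 2575 CPM in the other 7 libraries, and 9 of the 12 were called higher in mouse group 2. Glut1Tg replicate 3 held 2256 CPM of 5 mast cell and basophil markers (3.61 to 732 CPM elsewhere) and 249 CPM of 5 myeloid markers (4.61 to 21.3 CPM elsewhere). Its 5 erythroid and platelet markers came to 965 CPM, against 4.08 to 263 CPM elsewhere. WT replicate 2 and Glut1Tg replicate 1 were lowest, with 3.61 and 5.52 CPM of mast cell and basophil markers. Their erythroid and platelet markers came to 4.75 and 4.08 CPM. All remaining libraries held at least 136 CPM of the former markers and 48.0 CPM of the latter. B cell markers stayed at 3.71 to 9.55 CPM, CD8 markers at 7.07 to 10.5 CPM and NK markers at no more than 1.11 CPM, with Klra8 at 0 in all libraries. Xist, which is transcribed from the inactive X chromosome of females, reached 256 and 340.2 CPM in Glut1Tg replicates 2 and 4 and at most 1.32 CPM elsewhere. The part of these differences in the results below was not tested except where a value is given.

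Promoter sequences were read for 39 of the 43 genes, as RefSeq gives them for GRCm38.p6, from 250 bases before to 50 after a gene's start. Hnrnpul2, Clk1, U2af2 and Hnrnpll had no entry. The 4 printed here belong to the genes with an entry that changed most between mouse groups, and were picked after those values had been seen. Capitals mark matches, on either strand, to 7 short motifs that were likewise chosen with values known. The E-box was searched as CACGTG and the cAMP response element as TGACGTCA. For the core bound by ETS factors the search used CCGGAAG, and for the core bound by the factor NRF1 it used CGCATGCG. The GC box, known from SP family factors, was searched as GGGCGG, and the CCAAT box by the letters of its name. For the TATA box the search used TATAAA. No matches overlapped in these windows. Srsf1 is shown from chr11:88047123-88047422 (plus strand), Srsf9 from chr5:115326927-115327226 (plus strand), Rbm39 from chr2:156180189-156180488 (minus strand) and Clk4 from chr11:51262864-51263163 (plus strand), each 5′ to 3′ on the strand of its gene.
Srsf1: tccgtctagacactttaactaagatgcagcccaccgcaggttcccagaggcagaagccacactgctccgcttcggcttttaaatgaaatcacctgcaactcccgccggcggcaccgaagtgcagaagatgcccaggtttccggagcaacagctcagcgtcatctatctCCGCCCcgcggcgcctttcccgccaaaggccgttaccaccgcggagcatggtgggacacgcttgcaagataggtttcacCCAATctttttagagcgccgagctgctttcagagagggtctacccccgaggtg
Srsf9: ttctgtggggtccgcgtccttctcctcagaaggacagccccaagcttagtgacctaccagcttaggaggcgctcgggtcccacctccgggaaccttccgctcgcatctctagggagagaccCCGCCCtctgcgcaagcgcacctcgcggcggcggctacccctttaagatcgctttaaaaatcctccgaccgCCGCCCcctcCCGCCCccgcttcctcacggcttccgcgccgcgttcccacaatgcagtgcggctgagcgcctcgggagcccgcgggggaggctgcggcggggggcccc
Rbm39: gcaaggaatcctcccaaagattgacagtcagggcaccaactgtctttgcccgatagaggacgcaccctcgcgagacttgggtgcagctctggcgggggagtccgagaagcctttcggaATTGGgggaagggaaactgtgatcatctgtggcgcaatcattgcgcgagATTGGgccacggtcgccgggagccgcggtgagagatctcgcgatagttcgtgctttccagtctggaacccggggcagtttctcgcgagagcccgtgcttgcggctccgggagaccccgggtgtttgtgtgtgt
Clk4: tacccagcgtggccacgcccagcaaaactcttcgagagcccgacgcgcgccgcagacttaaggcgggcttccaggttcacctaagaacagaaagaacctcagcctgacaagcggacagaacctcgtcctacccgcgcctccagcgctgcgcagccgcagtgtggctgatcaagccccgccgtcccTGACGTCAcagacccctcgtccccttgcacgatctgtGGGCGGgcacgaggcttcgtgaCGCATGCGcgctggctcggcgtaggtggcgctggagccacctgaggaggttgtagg

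The windows of Srsf1 and Srsf9, whose messages were higher in mouse group 2, held 1 and 3 GC boxes, and that of Srsf1 also a CCAAT box. Rbm39, lower in mouse group 2, had 2 CCAAT boxes and no GC box match. Clk4, also lower, held a cAMP response element, a GC box and an NRF1 core. Over the 39 promoters, GC boxes occurred in 29 (74.4%, against 35.7% of 32851 promoter entries of all genes) and CCAAT boxes in 22 (56.4% against 37.4%). ETS cores were found in 7 (17.9% against 8.86%), E-boxes in 5 (12.8% against 7.15%) and TATA boxes in 5 (12.8% against 13.6%). The cAMP response element was in 2, Clk4 and Tra2a (5.13% against 1.79%), and the NRF1 core in 2, Clk4 and Srsf7 (5.13% against 1.87%). The NRF1 core was first searched in a longer form, which matched none of the 39 promoters. These shares compare unlike sets. For the 39 genes a single entry each was read, and all passed the filter on low counts. The 32851 entries include every entry of a gene, whether or not the gene was tested here. A match describes letters in the window and is not a measured binding site.

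Nearly all of these genes were abundantly transcribed. Per kilobase of merged exons, Hnrnpa1, a shuttling hnRNP that represses exons, had the highest mean level, 190.1 CPM per kb (range over the 9 libraries 131 to 279). Srsf5 followed with 171 (94.7 to 233) and Hnrnpa3 with 147 CPM per kb (104 to 236). These 3 ranges overlap, but the genes were measured in the same libraries, so overlap of ranges does not settle their order. At the other end lay Srsf12 with 0.187 (0.0721 to 0.253), Hnrnpr with 5.05 (4.10 to 7.80) and Hnrnpu with 6.81 CPM per kb (5.13 to 10.7). Srsf12 was the only 1 of the 43 whose range lay wholly below that of every other gene. Merged exons of all annotated transcripts are longer than a single message, so levels per kb compare genes only roughly. The ratio of the highest to the lowest library ran from 1.22 in Clk3 to 5.15 in Srsf1, with a median of 1.80. It was 2 or more in 17 genes and under 1.5 in 9.

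**Figure D1:**
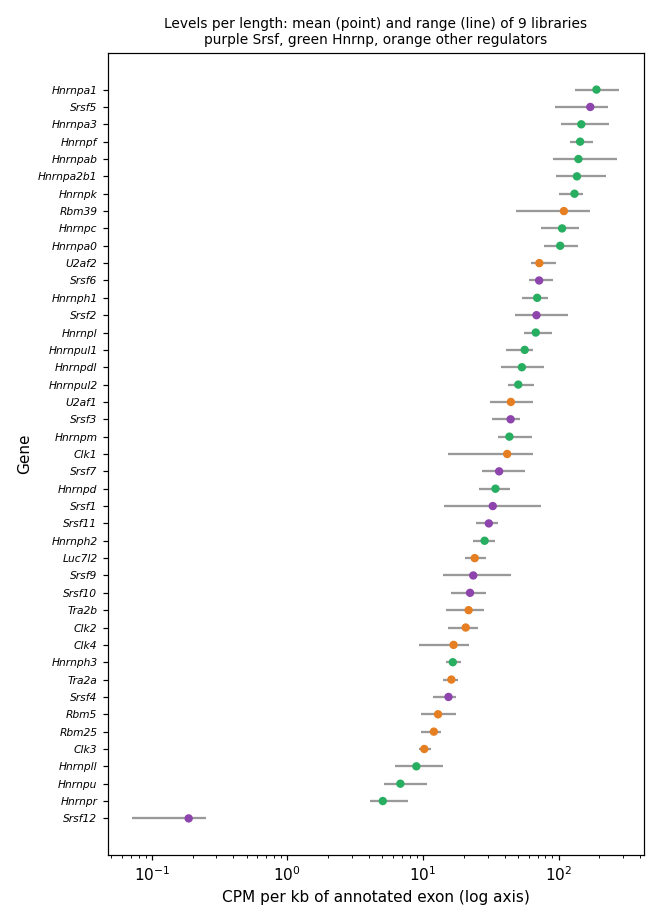
Mean level per kilobase of merged exons of the 43 genes (log10 axis, CPM per kb), with bars from the lowest to the highest of the 9 libraries. Hnrnpa1 lies at the top with 190.1 CPM per kb and Srsf12 at the bottom with 0.187 CPM per kb, and most neighbouring ranges overlap.

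A feature the choice of genes did not use was their annotation (GENCODE M21, GRCm38). A transcript annotated as subject to nonsense-mediated decay, the pathway that removes messages with an early stop codon, was listed for 31 of the 43 (72.1%, against 24.2% of 17712 protein-coding genes in the table). Transcripts with a retained intron were listed for 34 (79.1% against 49.5%), and both kinds for 29 (67.4% against 18%). Rbm39 (chr2:156147239-156180238, minus strand) had 25 annotated transcripts, 8 of them of the decay class and 7 with a retained intron. Clk1 (chr1:58410189-58424066, minus strand) had 13, with 2 and 7, and Clk4 (chr11:51261730-51281766, plus strand) 14, with 3 and 7. Srsf1 (chr11:88047373-88053755, plus strand) had 7 transcripts, 2 of each class, and Srsf9 (chr5:115327177-115333080, plus strand) 5, of which 1 was of the decay class. Hnrnpa0 (chr13:58125879-58128556, minus strand) had a single transcript and neither class. The deposited counts are per gene, so the isoforms were not measured, and a higher gene count need not mean more message that encodes protein. Well-studied genes also tend to have more annotated transcripts, and that difference was not tested.

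By size of the fitted fold change, Srsf1, Rbm39, Clk1 and Srsf9 differed most between mouse groups. Srsf1 and Srsf9 were higher in mouse group 2, and Rbm39, Clk1, Clk4 and Srsf11 were lower. Among hnRNPs, Hnrnpa2b1, Hnrnpu and Hnrnpul2 were called higher and none lower. In all, 9 of the 43 genes passed the test (20.9%), near the 24.1% of all genes tested, so the share is no result about these genes as a set. The 5 that rose were 11.6% of the 43 against 13.1% of all genes, and the 4 that fell 9.30% against 11.0%. The median log2 fold change of the 43 was 0.06 and that of all genes -0.01. Without Glut1Tg replicate 1 the test called 3 of the 43, and without WT replicate 1 or WT replicate 3 it called 5. The test was edgeR's quasi-likelihood test with genotype in the model and an adjusted p under 0.05.

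**Figure D2:**
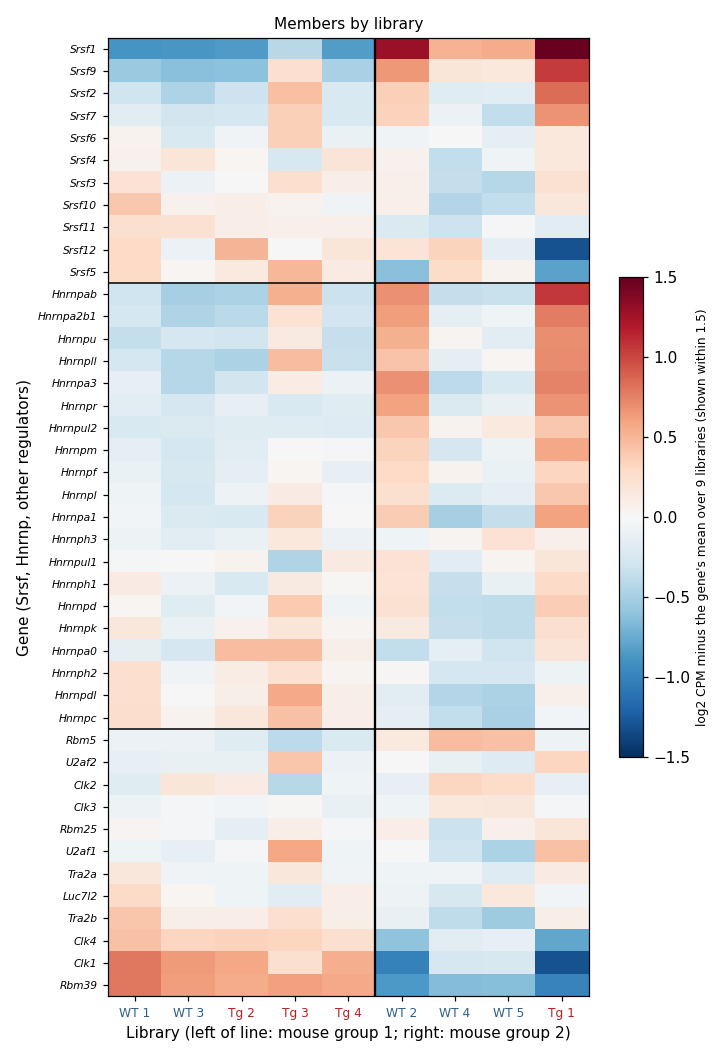
Heat map of the 43 genes (rows) in the 9 libraries (columns, by mouse group and genotype), as log2 CPM minus each gene's mean over the libraries, with colours limited to 1.5 either way. WT replicate 2 and Glut1Tg replicate 1 were the 2 highest libraries in 15 genes, 12 of them hnRNPs, and the 2 lowest in Clk1, Clk4, Rbm39 and Srsf5.

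Srsf1, the founding SR protein and a regulator of splice site choice and of translation, differed most. In mouse group 1 it stood at 81.9 and 82.7 CPM in the WT and 84.0, 113 and 84.9 CPM in the Glut1Tg libraries. Mouse group 2 had 372, 216 and 223 CPM in WT and 422 CPM in Glut1Tg. No library of mouse group 2 came down to the level of mouse group 1 and WT replicates 4 and 5 lay between that level and WT replicate 2 and Glut1Tg replicate 1. Means were 89.4 ± 13.5 CPM (SD, n = 5) in mouse group 1 and 308 ± 104 CPM (SD, n = 4) in mouse group 2, a 3.71-fold rise (95% interval 2.69 to 5.12; log2 1.89 with SE 0.21, adjusted p = 0.00152 by edgeR). Within WT alone the log2 difference was 1.72 (edgeR adjusted p = 0.0227).

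Srsf9, a close relative of Srsf1 expressed at a lower level, went the same way. Its libraries of mouse group 1 gave 24.3 and 23.2 CPM in the WT and 23.3, 42.5 and 25.5 CPM in the Glut1Tg libraries. Those of mouse group 2 gave 56.0, 40.5 and 40.0 CPM in WT and 73.9 CPM in Glut1Tg. The groups overlapped, because WT replicates 4 and 5 did not clear Glut1Tg replicate 3, the library with the highest mast cell and myeloid markers. The fitted rise was 2.10-fold (95% interval 1.51 to 2.93; log2 1.07 with SE 0.21, adjusted p = 0.00933 by edgeR). It did not pass without Glut1Tg replicate 1 (log2 0.93, edgeR adjusted p = 0.0974). Within WT alone Srsf9 did not pass either (log2 0.94, edgeR adjusted p = 0.105).

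Srsf11, an SR-related protein that acts in exon recognition, fell slightly. Values were 302 and 299 CPM in the WT and 275, 270.5 and 270.3 CPM in the Glut1Tg libraries of mouse group 1. In the other mouse group they were 221, 207 and 251 CPM in WT and 228 CPM in Glut1Tg. All libraries of mouse group 2 lay below all of mouse group 1, by a small margin (log2 -0.35 with SE 0.11, adjusted p = 0.0477 by edgeR). The call was lost when any library other than Glut1Tg replicate 3 was left out, with edgeR adjusted p up to 0.152. Rbm5, an RNA-binding protein that acts in apoptosis-related splicing, was the reverse case, since its mouse groups did not overlap but the test was not passed (log2 0.34 with SE 0.13, adjusted p = 0.0768 by edgeR). By DESeq2, Rbm5 was called for mouse group. It stood at 184 and 184 CPM in the WT and 173, 149 and 169 CPM in the Glut1Tg libraries of mouse group 1 and at 217, 269 and 265 CPM in WT and 185 CPM in Glut1Tg of mouse group 2.

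Clk1 and Clk4, a closely related pair of CLK kinases, were lower in mouse group 2. For Clk1, mouse group 1 gave 529.8 and 476 CPM in the WT and 454, 361 and 446 CPM in the Glut1Tg libraries. Mouse group 2 gave 152, 255 and 258 CPM in WT and 124 CPM in Glut1Tg. The groups did not overlap, and WT replicate 2 and Glut1Tg replicate 1 were the lowest. Means were 453 ± 61.2 CPM (SD, n = 5) in mouse group 1 and 197 ± 69.7 CPM (SD, n = 4) in mouse group 2, so that mouse group 2 was 2.64-fold lower in the fit (95% interval 1.88 to 3.70; log2 -1.40 with SE 0.22, adjusted p = 0.00406 by edgeR). Within WT it fell by 1.18 on the log2 scale (edgeR adjusted p = 0.0368).

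Clk4 showed 127 and 117 CPM in the WT and 119, 117 and 111 CPM in the Glut1Tg libraries in mouse group 1. It had 61.6, 84.1 and 85.7 CPM in WT and 54.4 CPM in Glut1Tg in mouse group 2, again with no overlap. The fit gave 1.77-fold lower values (95% interval 1.39 to 2.25; log2 -0.82 with SE 0.15, adjusted p = 0.00754 by edgeR), and without Glut1Tg replicate 1 the call was lost (edgeR adjusted p = 0.0828). Within WT alone Clk4 was not called either (log2 -0.66, edgeR adjusted p = 0.0749). Clk2 and Clk3, the other 2 kinases of the family, did not pass. Clk2 had 95.1 and 123 CPM in the WT and 118, 80.7 and 104 CPM in the Glut1Tg libraries of mouse group 1 and 99.3, 135 and 131 CPM in WT and 99.6 CPM in Glut1Tg of mouse group 2 (log2 0.09 with SE 0.17, adjusted p = 0.717 by edgeR). Clk3 was the steadiest of the 43 genes, with 81.7 and 85.2 CPM in the WT and 83.8, 87.1 and 79.5 CPM in the Glut1Tg libraries of mouse group 1 and 82.6, 96.2 and 97.0 CPM in WT and 84.2 CPM in Glut1Tg of mouse group 2 (log2 0.09 with SE 0.11, adjusted p = 0.575 by edgeR). Whether the family members differ from each other in response was not tested.

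Rbm39, a U2AF-related splicing factor that is also a transcriptional coactivator, had the smallest p of the 43 genes. Mouse group 1 had 1177 and 1044 CPM in the WT and 993, 1036 and 1006 CPM in the Glut1Tg libraries. In mouse group 2 there were 374, 432 and 436 CPM in WT and 338 CPM in Glut1Tg. Each of the 4 libraries of mouse group 2 lay at or under 436 CPM and each of the 5 of mouse group 1 at or above 993 CPM. Means were 1051 ± 73.4 CPM (SD, n = 5) in mouse group 1 and 395 ± 47.1 CPM (SD, n = 4) in mouse group 2, a 2.80-fold lower level in the fit (95% interval 2.31 to 3.39; log2 -1.48 with SE 0.12, adjusted p = 0.00120 by edgeR). WT libraries alone gave a log2 difference of -1.42 (edgeR adjusted p = 0.0135). Rbm39, Srsf1 and Clk1 were also the only members of the 43 called with WT replicate 2 and Glut1Tg replicate 1 left out.

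**Figure D3:**
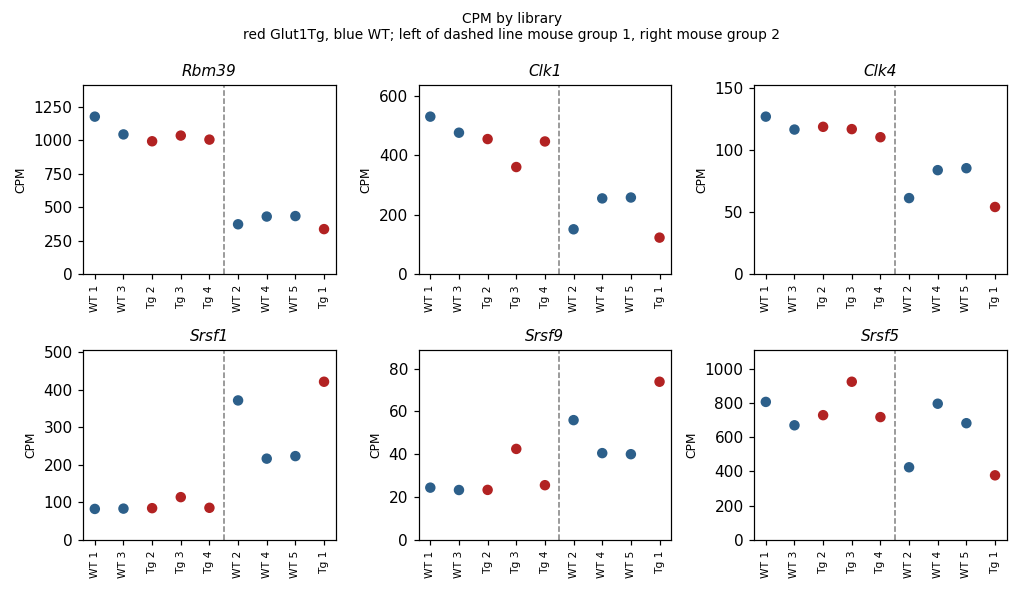
CPM by library of Rbm39, Clk1, Clk4, Srsf1, Srsf9 and Srsf5 (blue WT, red Glut1Tg, mouse group 1 left and mouse group 2 right of the dashed line, linear axes from 0). Mouse groups separate for Rbm39, Clk1, Clk4 and Srsf1, while for Srsf5 only WT replicate 2 and Glut1Tg replicate 1 lie low.

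Hnrnpul2, a chromatin-associated hnRNP with a role in DNA repair, rose least among the called hnRNPs but without overlap. It stood at 300.3 and 303 CPM in the WT and 311, 311 and 309.6 CPM in the Glut1Tg libraries of mouse group 1 and at 466, 366 and 391.6 CPM in WT and 465 CPM in Glut1Tg of mouse group 2 (log2 0.49 with SE 0.12, adjusted p = 0.0181 by edgeR). Hnrnpu, a scaffold attachment factor that binds RNA and chromatin, had 59.6 and 63.9 CPM in the WT and 63.0, 83.6 and 60.2 CPM in the Glut1Tg libraries of mouse group 1. Its mouse group 2 values were 110.3, 78.5 and 68.0 CPM in WT and 124 CPM in Glut1Tg (log2 0.62 with SE 0.18, adjusted p = 0.0386 by edgeR), of which only WT replicate 2 and Glut1Tg replicate 1 stood clear. Hnrnpa2b1, which binds RNA for splicing and for sorting into granules, had 717 and 629 CPM in the WT and 648, 999 and 706 CPM in the Glut1Tg libraries of mouse group 1. Mouse group 2 gave 1322, 777 and 824 CPM in WT and 1461 CPM in Glut1Tg (log2 0.68 with SE 0.22, adjusted p = 0.0492 by edgeR). The calls of these 3 genes had a thin margin. Hnrnpul2 was not called without Glut1Tg replicate 1, WT replicate 1 or WT replicate 3. Its log2 difference in those fits was 0.43, 0.49 and 0.51. Hnrnpa2b1 and Hnrnpu were called when Glut1Tg replicate 3, WT replicate 4 or WT replicate 5 was left out, but not when any other library was. Leaving out single libraries, the log2 difference of Hnrnpa2b1 ran from 0.52 to 0.77 and that of Hnrnpu from 0.46 to 0.72. Without both WT replicate 2 and Glut1Tg replicate 1 they were 0.26 and 0.26.

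WT replicate 2 and Glut1Tg replicate 1 were the 2 highest libraries for 15 of the 43 genes (34.9%), against 22.6% of all genes tested. These were 12 of the 20 hnRNPs, 2 SR proteins (Srsf1 and Srsf9) and Rbm25. They were the 2 lowest for 4 genes (9.30% against 19.7%), namely Clk1, Clk4, Rbm39 and Srsf5. In sum over the 20 Hnrnp genes these libraries held 9444 and 10398 CPM, while the other 7 held 6293 to 8550 CPM. The 11 Srsf genes together held 2162 to 2837 CPM, with Glut1Tg replicate 3 highest. WT replicate 2 and Glut1Tg replicate 1 also had the highest proliferation genes, and the part of that difference was not tested. Because the libraries are bulk RNA, more cells of a kind and more RNA per cell cannot be told apart.

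Hnrnpa1 stood at 567 and 500.4 CPM in the WT and 495, 741 and 584 CPM in the Glut1Tg libraries of mouse group 1 and at 759, 413 and 455 CPM in WT and 881 CPM in Glut1Tg of mouse group 2. Hnrnpa3, a relative of it, gave 695 and 562 CPM in the WT and 628, 816 and 711 CPM in the Glut1Tg libraries, then 1223, 576 and 647 CPM in WT and 1274 CPM in Glut1Tg. Neither passed the mouse group test, Hnrnpa1 with log2 0.23 (edgeR adjusted p = 0.487) and Hnrnpa3 with log2 0.55 (edgeR adjusted p = 0.125). Hnrnpr, which binds RNA in the nucleus and in axons, had 97.6 and 91.0 CPM in the WT and 100.02, 92.7 and 95.7 CPM in the Glut1Tg libraries in mouse group 1 and 166, 93.6 and 100.4 CPM in WT and 173 CPM in Glut1Tg in mouse group 2, where WT replicates 4 and 5 lay within the range of mouse group 1 or close to it. For mouse group Hnrnpr was called by DESeq2 but not by edgeR (log2 0.54 with SE 0.19, edgeR adjusted p = 0.0685). Srsf5, an SR protein whose message responds early to growth signals, had 809 and 671 CPM in the WT and 731, 927 and 719.7 CPM in the Glut1Tg libraries of mouse group 1. In mouse group 2 it had 425, 798 and 684 CPM in WT and 378 CPM in Glut1Tg, so that WT replicates 4 and 5 were not low and the mouse group test was not passed (edgeR adjusted p = 0.157). Srsf12 was barely detected, at 0.227 to 0.796 CPM, and its 3.51-fold range is that of a low count.

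Between genotypes none of the 43 genes passed (0 in either direction, edgeR with mouse group in the model), and of all genes 1, Slc2a1, did (0.00675%). Their adjusted p lay between 0.681 and 0.967, and DESeq2 and limma-voom called none of them either. At an unadjusted p under 0.05 there were 4 (9.30%, against 6.00% of all genes), Hnrnpa0, Srsf2, Srsf9 and U2af1, each with a higher fitted level in Glut1Tg. Fitted differences were positive for 33 of the 43 (76.7%) and for 52.4% of all genes, with medians of 0.16 and 0.02 on the log2 scale. By family they were positive for 20 of 20 Hnrnp genes (0.02 to 0.62, median 0.26), 8 of 11 Srsf genes (median 0.18) and 5 of 12 other regulators (median -0.09). Without Glut1Tg replicate 1 they were positive for 16 of 20 Hnrnp genes, with a median of 0.10, and for 26 of the 43, with a median of 0.06. With upper quartile scaling, which moved the median of all genes to -0.04, they were positive for 18 Hnrnp genes, 6 Srsf genes and 29 of the 43. None passed singly, and since genes of a family are measured in the same libraries, the counts are a description.

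**Figure D4:**
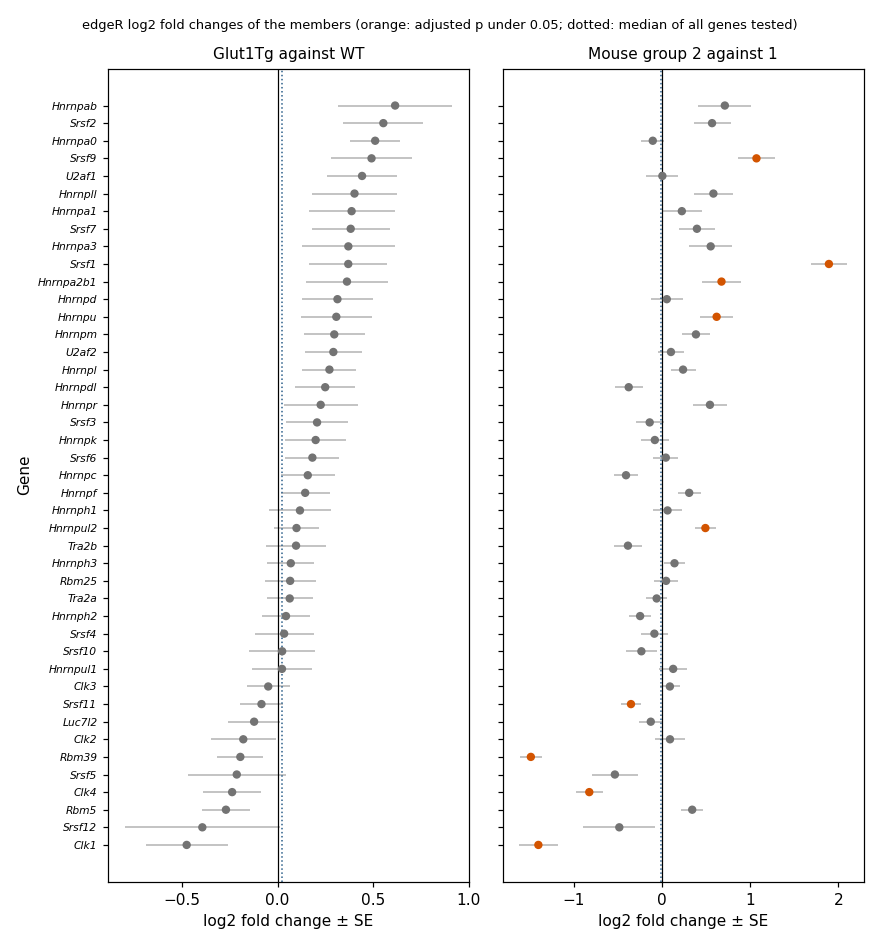
Fitted log2 fold changes with SE of the 43 genes, for Glut1Tg against WT and for mouse group 2 against 1, from the same edgeR model. Orange marks an adjusted p under 0.05 and the dotted line the median of all genes tested. No gene is marked for genotype and 9 are marked for mouse group, with Srsf1 at 1.89 and Rbm39 at -1.48.

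Hnrnpa0, a small hnRNP that binds AU-rich elements of immune messages, was the only 1 of the 43 genes (2.33%, against 1.59% of all genes) whose genotypes did not overlap. Glut1Tg replicates 1 to 4 gave 308, 370.2, 371 and 285 CPM. WT replicates 1 to 5 gave 244, 208, 226, 244 and 219 CPM. Every Glut1Tg library was thus above every WT library, the 2 with Xist (replicates 2 and 4) as well as the 2 without. Means were 228 ± 15.9 CPM (SD, n = 5) for WT and 333 ± 43.6 CPM (SD, n = 4) for Glut1Tg. In the fit, Glut1Tg was 1.42-fold higher (interval at 95% from 1.16 to 1.74; log2 0.51 with SE 0.13, adjusted p = 0.681 by edgeR), which did not pass. Within mouse group 1 the log2 difference was 0.54 and within mouse group 2, where Glut1Tg has 1 library, 0.46. It stayed between 0.45 and 0.56 under the 19 alternatives, with adjusted p from 0.277 to 0.985.

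Srsf2, an SR protein that binds exonic enhancers and sits in nuclear speckles, had 347, 156, 266 and 165 CPM in Glut1Tg replicates 1 to 4. In WT it had 158, 249, 141, 172 and 173 CPM. Glut1Tg replicates 1 and 3 were high and replicates 2 and 4 lay within the WT range (log2 0.55 with SE 0.21, adjusted p = 0.681 by edgeR). Without replicate 1 the log2 difference was 0.35. For mouse group Srsf2 was called by DESeq2 but not by edgeR (log2 0.57 with SE 0.21, edgeR adjusted p = 0.0764). The 2 low Glut1Tg libraries are those with Xist, and replicate 3 is the one with the highest mast cell and myeloid markers. Mast cell and basophil markers summed to 5.52, 493, 2256 and 167 CPM in Glut1Tg replicates 1 to 4. Whether either trait has a part in the genotype difference was not tested.

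U2af1, the small subunit of the factor that reads the 3′ splice site, showed a like order. Glut1Tg libraries gave 153, 111, 168 and 108 CPM and WT libraries 108, 114, 103, 91.7 and 81.2 CPM (log2 0.44 with SE 0.18, adjusted p = 0.681 by edgeR). Its large subunit U2af2, which binds the polypyrimidine tract, had 368, 271, 391 and 276 CPM in Glut1Tg and 269, 295, 272, 271 and 257 CPM in WT (log2 0.29 with SE 0.15, adjusted p = 0.681 by edgeR). Hnrnpab, a DNA- and RNA-binding hnRNP, had the largest fitted genotype difference of the 43 when all libraries were used. It stood at 750.2, 259, 519.7 and 287 CPM in Glut1Tg and at 293, 576, 255, 281 and 284 CPM in WT (log2 0.62 with SE 0.30, adjusted p = 0.681 by edgeR), with Glut1Tg replicates 1 and 3 and WT replicate 2 high and the other 6 at or under 293 CPM. Without Glut1Tg replicate 1 the log2 difference of Hnrnpab was 0.34, below that of Hnrnpa0 (0.51), while that of U2af1 was 0.26 and that of U2af2 0.18. Without Glut1Tg replicate 3 that of U2af2 was 0.18. Of the exon bases of Hnrnpab 29.1% overlap exons of Phykpl on the opposite strand.

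Among SR proteins Srsf9, given above by library, had 36.8 ± 13.5 CPM (SD, n = 5) for WT and 41.3 ± 23.4 CPM (SD, n = 4) for Glut1Tg (log2 0.49 with SE 0.21, adjusted p = 0.681 by edgeR). It was 0.32 without Glut1Tg replicate 1 and 0.32 without Glut1Tg replicate 3. Clk1 and Rbm5 had the most negative estimates with small p. Clk1 had 334 ± 161 CPM (SD, n = 5) for WT and 346 ± 154 CPM (SD, n = 4) for Glut1Tg, and its fitted difference (log2 -0.48 with SE 0.21, adjusted p = 0.681 by edgeR) was -0.28 without Glut1Tg replicate 1 and turned positive, to 0.05, when mouse group was left out of the model. Rbm5 had 224 ± 41.6 CPM (SD, n = 5) for WT and 169 ± 15.0 CPM (SD, n = 4) for Glut1Tg (log2 -0.27 with SE 0.13, adjusted p = 0.681 by edgeR). Neither passed.

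**Figure D5:**
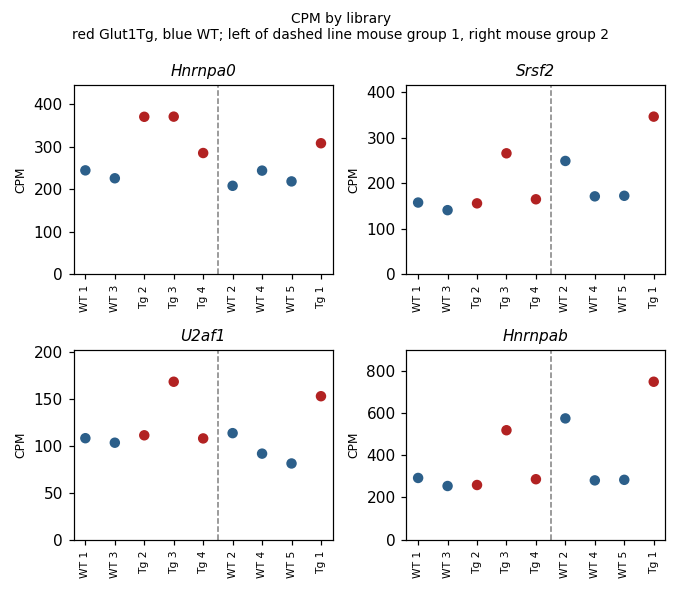
CPM by library of Hnrnpa0, Srsf2, U2af1 and Hnrnpab (red Glut1Tg, blue WT, mouse group 1 left and mouse group 2 right of the dashed line, linear axes from 0). All 4 Glut1Tg libraries lie above all 5 WT libraries for Hnrnpa0, whereas for the other 3 genes Glut1Tg replicates 1 and 3 are high and replicates 2 and 4 are not.

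Hnrnpll, an hnRNP that represses variable exons of Ptprc (CD45) in activated lymphocytes, and its relative Hnrnpl were looked at as T cell regulators. Hnrnpll had 163, 72.2, 138 and 79.6 CPM in Glut1Tg and 83.3, 135, 74.6, 91.1 and 102 CPM in WT. It passed neither test (genotype log2 0.40 and mouse group log2 0.58, SE 0.22; edgeR adjusted p = 0.681 and 0.0827). Hnrnpl stood at 528, 379, 436 and 394 CPM in Glut1Tg and 381, 474, 333, 348 and 362 CPM in WT, with adjusted p of 0.681 and 0.238 by edgeR. Ptprc itself had 791 to 1571 CPM per gene, and its isoforms were not measured.

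The other 19 genes passed none of the 3 edgeR tests. Of these, DESeq2 called Hnrnpc and Hnrnpf for mouse group, upper quartile scaling Hnrnpc and the fit without WT replicate 4 Hnrnpm. They comprise 10 hnRNPs (Hnrnpc, Hnrnpd, Hnrnpdl, Hnrnpf, Hnrnph1, Hnrnph2, Hnrnph3, Hnrnpk, Hnrnpm and Hnrnpul1), 5 SR proteins (Srsf3, Srsf4, Srsf6, Srsf7 and Srsf10), Tra2a and Tra2b, which bind purine-rich exonic enhancers, and Rbm25 and Luc7l2, which act with the U1 particle. Their mean levels ran from 52.3 CPM in Hnrnph3 to 847 CPM in Hnrnpk. Their libraries spread 1.29-fold (Tra2a) to 2.07-fold (Hnrnpdl) from lowest to highest. Mouse group differences lay between -0.41 (Hnrnpc) and 0.40 (Srsf7) on the log2 scale, 9 of 19 positive, with edgeR adjusted p of 0.0643 or more. Hnrnpc, which guards against exons derived from transposable elements, was closest to the threshold and its mouse groups did not overlap, at 542 and 466 CPM in the WT and 505, 612 and 480.5 CPM in the Glut1Tg libraries of mouse group 1 and 411, 349 and 321 CPM in WT and 438 CPM in Glut1Tg of mouse group 2. With it, 8 of the 43 genes had mouse groups that did not overlap (18.6%, against 21.8% of all genes), 3 above (Hnrnpul2, Rbm5 and Srsf1) and 5 below (Clk1, Clk4, Hnrnpc, Rbm39 and Srsf11). Genotype differences of the 19 lay between -0.12 (Luc7l2) and 0.38 (Srsf7), 18 of 19 positive.

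The interaction asked whether the genotype difference itself differed between mouse groups. By edgeR's quasi-likelihood test 0 of the 43 and 0 of all genes (0%) passed. At an unadjusted p under 0.05 by the same test there were 0 of the 43 and 786 of the 14817 genes tested. That share is small too, so the 0 is no result about the 43 as a set. DESeq2 called 2 genes, none of them among the 43. Without WT replicate 2 edgeR called 123 genes and without Glut1Tg replicate 3 it called 3, again none of the 43. Mouse group 2 has 1 Glut1Tg library, so this test has little precision here: of the 43, Srsf12, at under 1 CPM, had the lowest fitted interaction (log2 -1.55 with SE 0.71). The others ran from -0.85 (SE 0.45, Srsf5) to 0.61 (SE 0.32, Srsf10).

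Some counts may hold reads of neighbours, since no source used here gives the strand setting of the counting. Exons of Srsf4 overlap Gm12992 over 43.0% of their length, those of Luc7l2 overlap Gm26699 over 18.9%, those of Clk3 overlap Edc3 over 15.2% and those of Srsf2 overlap Mettl23 over 15.6% and Mfsd11 over 9.74%, all on opposite strands. Hnrnpm shares 14.7% with March2 on its own strand. For Rbm39, Clk1 and Hnrnpa0 no overlap with an annotated exon of another gene was found, and for Srsf1 and Clk4 it was 1.72% and 1.02%. Several Hnrnp genes have processed pseudogenes, and how the counting treated reads that match more than once is not given here.

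Around these genes lie the core particles on which they act. Of 50 genes of the small nuclear ribonucleoproteins and core spliceosome, 9 passed for mouse group (6 higher and 3 lower), a share of 18% against 24.1% of all genes. Sf3b1, the branch point factor, had 1420.2 ± 60.5 CPM (SD, n = 5) in mouse group 1 and 894 ± 138 CPM (SD, n = 4) in mouse group 2 (log2 -0.75 with SE 0.13, adjusted p = 0.00623 by edgeR). Dhx8, a helicase that releases the spliced message, fell with it (log2 -0.96 with SE 0.21, adjusted p = 0.0124 by edgeR), and Prpf6, a scaffold of the tri-snRNP, rose (log2 0.48 with SE 0.10, adjusted p = 0.0121 by edgeR). For genotype 0 of 50 passed, fitted differences were positive for 44, against 52.4% of all genes, and the median was 0.29 against 0.02. At an unadjusted p under 0.05 there were 16 of the 50, all 16 positive, and 889 of all 14817 genes (6.00%), of which 667 were positive and 222 negative. In sum the 50 held 7541 to 7717 CPM in Glut1Tg and 7308 and 7484 CPM in WT of mouse group 1. Mouse group 2 gave 8565 CPM in its 1 Glut1Tg library and 7613, 6117 and 6353 CPM in WT. How these counts change with a library left out was not tested.

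Of 12 genes of SR protein kinases other than CLK, the phosphatase and nuclear import, 4 passed for mouse group (1 higher and 3 lower), 33.3% against 24.1% of all genes. Dyrk2, a kinase of the DYRK family, had 133 ± 25.6 CPM (SD, n = 5) in mouse group 1 and 28.2 ± 15.7 CPM (SD, n = 4) in mouse group 2 (log2 -2.41 with SE 0.42, adjusted p = 0.00604 by edgeR), and its relative Dyrk1a fell by less (log2 -0.53 with SE 0.13, adjusted p = 0.0203 by edgeR). Srpk3, the muscle member of the SRPK family, was called lower at no more than 0.703 CPM. Srpk1 and Srpk2, the widely expressed SR protein kinases, did not pass (log2 0.28 and 0.20; edgeR adjusted p = 0.276 and 0.412). Ppp1ca, a catalytic subunit of protein phosphatase 1, was the gene that rose (log2 0.45 with SE 0.14, adjusted p = 0.0455 by edgeR).

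Of 23 further SR-related proteins 8 passed (5 higher and 3 lower), 34.8% against 24.1%. Rbm10, a relative of Rbm5, rose (log2 0.99 with SE 0.12, adjusted p = 0.00196 by edgeR), as did Rbm6 of the same family (log2 0.67 with SE 0.10, adjusted p = 0.00398 by edgeR). Scaf8, which binds the tail of RNA polymerase II, fell (log2 -0.91 with SE 0.14, adjusted p = 0.00430 by edgeR). Of 38 other sequence-specific splicing factors that were tested 12 passed (8 higher and 4 lower), 31.6% against the same 24.1%. Cirbp, the cold-inducible RNA-binding protein, had 307 ± 40.3 CPM (SD, n = 5) in mouse group 1 and 100.3 ± 42.5 CPM (SD, n = 4) in mouse group 2 (log2 -1.67 with SE 0.31, adjusted p = 0.00742 by edgeR). Ptbp2 also fell (log2 -1.11 with SE 0.21, adjusted p = 0.00728 by edgeR), while Rbm14 rose (log2 1.19 with SE 0.19, adjusted p = 0.00418 by edgeR). Of 15 genes of the exon junction complex and nonsense-mediated decay 3 passed (20%, 1 higher and 2 lower): Casc3 (log2 -0.57 with SE 0.14, adjusted p = 0.0204 by edgeR) and Smg6 (log2 -0.65) were lower and Upf3b (log2 0.44) was higher. None of 10 T cell genes with regulated splicing passed by edgeR, 3 of them having an unadjusted p under 0.05. Fitted differences were below 0 for all 10, with a median of -0.38, against -0.01 for all genes. By level they were led by Ptprc and Cd247 (log2 -0.03 and -0.24; edgeR adjusted p = 0.932 and 0.320). For genotype none of the genes in these lists passed.

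As signs of handling and RNA quality, 9 mitochondrial transcripts summed to 13134 to 24185 CPM and none passed for mouse group, with 2 at an unadjusted p under 0.05 by edgeR. Their fitted mouse group differences were positive for 1 of 9, with a median of -0.34 against -0.01 for all genes. The nuclear RNAs Malat1 and Neat1 came to 290.5 to 723 CPM together and neither passed. Of 10 immediate early and heat shock genes 1 was higher (Ier2) and 1 lower (Atf3). Their sum was 1555 and 1694 CPM in WT replicates 4 and 5, which belong to mouse group 2, and 591 to 1122 CPM in the other 7 libraries. The part of these differences in the mouse group results was not tested.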

How the data were processed

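RNA of induced Treg was sequenced in 9 libraries. Per the labels' protocols, a stranded TruSeq mRNA kit and paired-end HiSeq reads were used. Reads were handled with TopHat2, featureCounts, bcl2fastq and DESeq2 on build mm10, per the submitters' processing notes, with settings that are not stated there. The authors deposited raw counts per gene, which were analysed here, and a table of log2 values relative to WT replicates 1 and 3, which the authors made in a way not stated and which served only as a check: apart from Srsf12 (0.56), the 43 genes differed from it by at most 0.0648.

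Counts were fitted in R 4.3.3 with edgeR 4.0.16 (filterByExpr by genotype, TMM, quasi-likelihood test) with genotype and mouse group as terms, and with their product for the interaction. Benjamini-Hochberg adjustment ran over all 14817 genes, with a threshold of 0.05. SE was taken as log2 fold change divided by the root of the F statistic, and its median over all genes was 0.25 for either term. The design has 6 residual degrees of freedom. The fits were tested on simulated data. All pairs of libraries differed by more than sampling noise (lowest chi-square per degree of freedom 20.1), so all 9 were counted. Alternatives were other normalizations, no filter, each library left out, both libraries that stand apart left out, terms left out, single mouse groups, WT alone, a replicate block, DESeq2 1.42.0 and limma 3.58.1 (voom). Leave-out fits kept the 14817 genes.

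The genes and lists were chosen with earlier results of these data known. Shown by library were genes that passed a test, the 8 with the smallest p for each term, Clk1 to Clk4, Hnrnpll, Hnrnpl and the 3 highest and 3 lowest per kb, 24 in all. From other lists up to 3 genes that passed were named, or else 2 by level. Taking those 3 by smallest p, and adding Srpk1, Srpk2, Ppp1ca and Hnrnpc, was settled after values were seen. Gene models and lengths came from GENCODE M21. Where a gene had several promoter entries, the entry nearest the start of its principal transcript was used.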

Additional observations from a re-analysis of the deposited data

Results flagged for a closer look

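In single genes, a library was set apart where its gap to the next library was large for the range of its group of 4 or 5 (Dixon's 95% critical value). Chance marks about 1 in 20 groups, and here 13 of 86 groups were marked, 6 through Glut1Tg replicate 1, 5 through WT replicate 2 and 2 through Glut1Tg replicate 3. The share marked over all genes was not computed and the groups share the same libraries, so the count is no result about these genes. Of all genes tested, WT replicate 2 and Glut1Tg replicate 1 were the 2 highest libraries in 22.6% and the 2 lowest in 19.7%. Glut1Tg replicate 1 is the only Glut1Tg library of mouse group 2, so its gaps and mouse group cannot be told apart within Glut1Tg. It was far below the other Glut1Tg libraries for Rbm39 (338 CPM, others 993 to 1036), Clk4 (54.4 CPM, others 110.7 to 119) and Srsf11 (228 CPM, others 270.3 to 275). It was far above them for Srsf1 (422 CPM, others 84.0 to 113), Hnrnpul2 (465 CPM, others 310 to 311) and Hnrnpr (173 CPM, others 92.7 to 100.02).

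WT replicate 2 was marked as above the other WT libraries for Hnrnpa2b1 (1322 CPM, others 629 to 824), Hnrnpa3 (1223 CPM, others 562 to 695), Hnrnpab (576 CPM, others 255 to 293), Hnrnpm (429 CPM, others 282 to 322) and Hnrnpr (166 CPM, others 91.0 to 100.4). By the same measure Srsf1 (372 CPM, others 81.9 to 223) and Srsf2 (249 CPM, others 141 to 173) were not marked, although WT replicate 2 was highest in both. Mouse group 2 also holds WT replicates 4 and 5, which were not set apart in these 5 genes. Glut1Tg replicate 3 was above the other Glut1Tg libraries for Hnrnpdl (375 CPM, others 266 to 269) and Tra2b (235 CPM, others 209 to 210.4). It is the library with the highest mast cell and myeloid markers, whose part in these values was not tested.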

How the results depend on the processing

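Over 17 single-gene fold changes and their alternatives, 254 of 305 values kept their direction and side of the threshold, 50 lost the call, 0 gained it and 1 reversed, Clk1 for genotype (0.051 without the mouse group term). The genotype values among them were not called in the fit reported, so they had no call to lose. All 50 losses fell on the mouse group values, up to 14 of 17 alternatives for Srsf11 and 10 of 17 for Hnrnpa2b1. Rbm39, Srsf1 and Clk1 stayed called for mouse group under all alternatives but the replicate block. Members called for mouse group, 9 in the fit reported, were 3 to 11 with a library left out (3 without Glut1Tg replicate 1), 3 without both WT replicate 2 and Glut1Tg replicate 1, 3 in WT alone and 14 by DESeq2. DESeq2 added Rbm5, Srsf2, Hnrnpf, Hnrnpc and Hnrnpr. Leaving out Glut1Tg replicate 3 added Hnrnpll and Srsf2, and leaving out WT replicate 4 added Hnrnpa3, Hnrnpm and Hnrnpr. All genes called for mouse group, 3576, were 668 to 4552 with a library left out, 593 without both and 675 in WT alone. Genes called for genotype, 1, were 2 without the filter, 0 without both, 0 within either mouse group, 7 by DESeq2 and 1 to 2 with a library left out, none among the 43. Interaction calls, 0, were 2 by DESeq2 and 0 to 123 with a library left out (123 without WT replicate 2). Without Glut1Tg replicate 1 it could not be fitted. Same-numbered libraries, as deviations from their genotype means, correlated at -0.51, -0.59, 0.23 and -0.21 for replicates 1 to 4. Numbers 1, 2 and 4 each join libraries of different mouse groups, so these values cannot tell whether the numbers pair libraries. With the replicate block, genotype called 0 genes and mouse group 0 genes and 0 members by edgeR, with 4470 genes and 11 members at an unadjusted p under 0.05. The replicate block removes no library or gene but adds terms, which leaves fewer residual degrees of freedom than the 6 of the fit reported. The cause of the changes under the alternatives was otherwise not tested, beyond fewer libraries or genes where the alternative removes them. Srsf12 is limited by its depth.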
